A study of Rattus norvegicus with 8 samples.

Results

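Chemokine ligands and receptors were measured in femoral bone around titanium implants. Of the 19120 gene loci in the deposited gene table, 43 were taken as members. Members were chosen by name, as every Ccl, Cxcl, Ccr, Cxcr, Ackr, Xcl, Xcr or Cx3c symbol in the table other than Ccr3 and Cxcl12. They comprise 23 ligands and 20 receptors. Chemokine genes with other names, such as Pf4 and Ppbp, are not members. Ribosomal RNA-depleted total RNA was sequenced from 8 libraries of male Wistar rats, 4 from a normal group on a normal diet and 4 from a hyperlipidemic group on a high-fat diet. The diets lasted 8 weeks, the rats were 12 to 13 weeks old, and all of them carried implants in both femoral shafts. Bone within 1 mm of the implant was taken at 10 days and freed of muscle. The labels do not say whether each library is 1 animal or a pool, so the p-values reflect library-to-library spread alone, which may be technical. Hyperlipidemia is given by the group label alone, and no blood lipid value was used here.

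Chemokines are small secreted proteins that guide white blood cells along concentration gradients. They are named for the spacing of their first cysteines (CC, CXC, CX3C and XC) and act through receptors coupled to inhibitory G proteins, while atypical receptors bind and remove them without that signal. In bone marrow they hold immature blood cells in place and control the release of neutrophils, and in healing bone they bring in monocytes, from which macrophages and osteoclasts form.

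The deposited values are FPKM, fragments scaled to transcript length and library size, so levels of different genes can be set side by side per length. No counts were used here, so library depth is unknown and counting intervals are left out. A locus was tested when its mean over the 8 libraries was at least 0.5 FPKM, which 24 of the 43 members reached, 14 ligands and 10 receptors. The test was limma on log2(FPKM + 1) over all 13742 loci that passed, and the threshold for calling a change was 0.05 after Benjamini-Hochberg adjustment. Log2 changes are hyperlipidemic minus normal on that scale, which understates the change of low genes.

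The libraries stood apart in ways that touch these genes. Normal replicate 1 held the highest value of 11 of the 24 tested members, and 31 loci of the whole table were listed at 0 in it that exceeded 10 FPKM in each of the 7 others. Of the tested members 15 (62.5%) were listed at 0 in at least 1 library, against 25.6% of all tested loci. A listed 0 is therefore not taken as absence of the transcript, and tested members with such values are given library by library. Markers of bone-forming cells were present in every library. Their summed FPKM (7 of 8 markers found, none at 0 throughout) lay between 2420 and 3519 in the normal group. In the hyperlipidemic group it lay between 1052 and 1874, without overlap. Most of this sum came from Col1a1 and Sparc, while Ibsp, Alpl, Sp7 and Runx2 each overlapped between the groups. Summed markers of osteoclasts (318 to 574 and 144 to 296) and of adipocytes (8.71 to 60.8 and 71.9 to 321) also did not overlap between the groups, while those of skeletal muscle (0.193 to 21.8 and 1.85 to 60.2), platelets (38.9 to 182 and 162 to 343), red cells (5931 to 7516 and 6888 to 14000), endothelium (21.8 to 33.2 and 29.9 to 42.4) and marrow stroma (39.3 to 49.6 and 40.6 to 74.9) did.

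**Figure D1:**
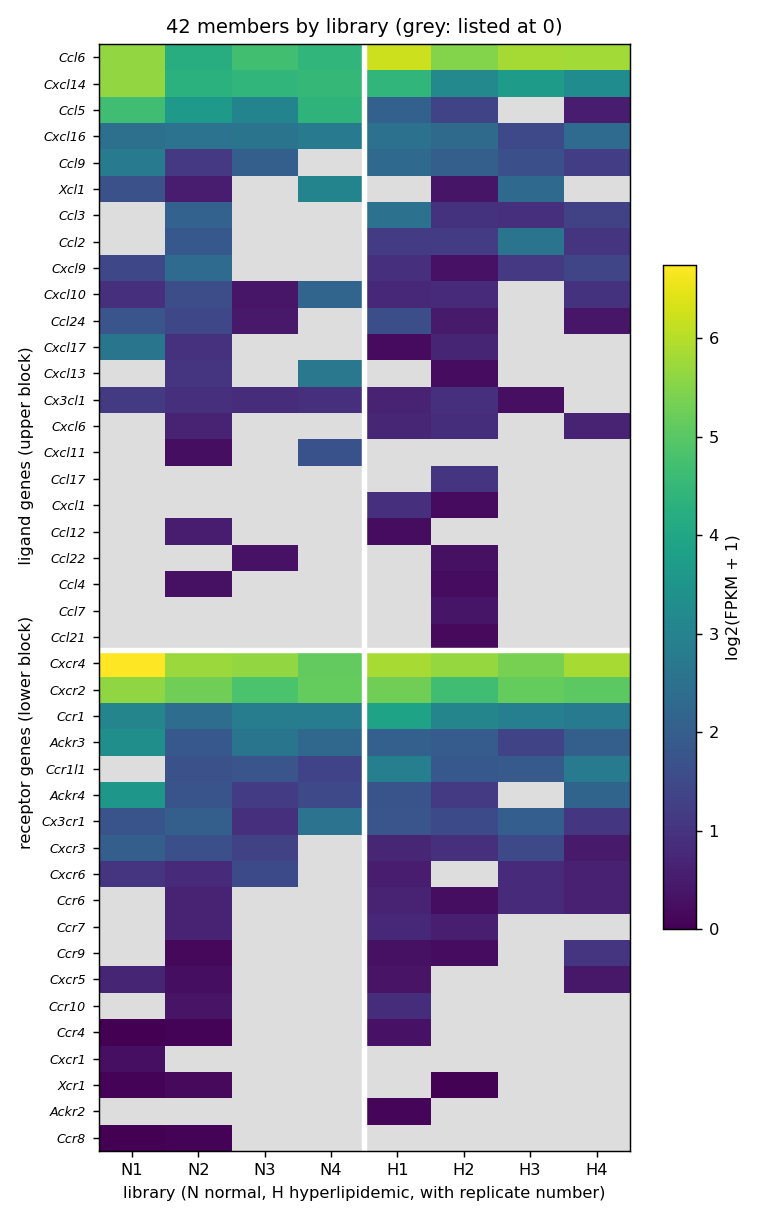
Level of 42 of the 43 members in each library as log2(FPKM + 1), ligands in the upper and receptors in the lower block, each ordered by mean level, with values listed at 0 in grey. The 4 members with a mean of at least 10 FPKM (Ccl6, Cxcl14, Cxcr4 and Cxcr2) are high in every library, and 24 members or more are grey in normal replicates 3 and 4 and in hyperlipidemic replicate 3.

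The bases just before the annotated gene start are printed for 3 ligands. Ccl6 and Cxcl14 are shown because they were the most abundant member ligands and their log2 changes had opposite signs. Cxcl10 is shown because it alone of the members matched held all the motifs searched. The sequences are from RefSeq on build GRCr8, which is not the build of the expression files, and run 5′ to 3′ on the gene's strand over the 250 bases before the start. Capitals mark TATAAA (the letters of the TATA box), GGGNNNNNCC (a loose form of the NF-kappaB site) and GAAANNGAAA (the core of the interferon-stimulated response element). All were searched on both strands and at any position of the window.
Ccl6 (chr10:68883367-68883616, minus strand): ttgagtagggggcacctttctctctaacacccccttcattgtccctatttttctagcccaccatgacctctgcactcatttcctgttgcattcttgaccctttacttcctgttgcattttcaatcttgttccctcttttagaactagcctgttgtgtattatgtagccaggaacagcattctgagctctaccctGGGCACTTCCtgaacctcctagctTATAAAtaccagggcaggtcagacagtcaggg
Cxcl14 (chr17:8322900-8323149, plus strand): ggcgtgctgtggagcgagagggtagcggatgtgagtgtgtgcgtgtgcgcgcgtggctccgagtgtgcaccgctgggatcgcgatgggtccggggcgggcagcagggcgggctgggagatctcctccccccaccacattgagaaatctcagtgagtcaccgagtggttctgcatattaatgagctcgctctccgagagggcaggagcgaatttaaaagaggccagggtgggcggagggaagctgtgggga
Cxcl10 (chr14:15988816-15989065, plus strand): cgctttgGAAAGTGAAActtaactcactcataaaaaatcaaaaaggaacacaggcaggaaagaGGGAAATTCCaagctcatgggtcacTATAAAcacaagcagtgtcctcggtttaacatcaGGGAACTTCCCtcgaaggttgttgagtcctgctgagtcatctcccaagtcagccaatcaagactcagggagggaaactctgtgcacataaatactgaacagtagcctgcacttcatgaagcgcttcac
The Ccl6 window held TATAAA from 32 to 27 bases before the start and the NF-kappaB letters from 56 to 47 bases before it. The Cxcl14 window held none of the motifs. The Cxcl10 window held TATAAA from 162 to 157 bases before the start, much farther from it than in Ccl6. In the Cxcl10 window the NF-kappaB letters occurred 3 times, and 2 of these matches overlap by all but 1 base. Of the 43 members 32 matched an entry by symbol. Among these, 12 (37.5%) held TATAAA against 12.9% of all 33469 promoter windows, 16 (50.0%) held the NF-kappaB letters against 42.3%, and 1 (Cxcl10) held the interferon letters against 3.41%. These matches are descriptions of the letters and carry no test.

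Of the 24 tested members, 1 passed the test, the ligand Ccl5, and it was lower in the hyperlipidemic group. That is 4.17% of the tested members, beside 1.39% of all tested loci (1.24% lower and 0.146% higher). No tested member locus is 1000 bp or shorter, and of the 11892 tested loci above that length, a limit chosen after the data were seen, 0.219% passed (0.109% lower and 0.109% higher). Of the tested members 18 had a log2 change below 0 and 6 above, with a median of -0.33. Over all tested loci 35.0% were below 0 and the median was 0.18. Cxcl13, Cxcl17, Cx3cl1 and Cxcr6, all below 0, met the level of 0.5 FPKM only through the normal group. Their means were 1.65, 1.51, 0.942 and 0.919 FPKM in the normal and 0.040, 0.196, 0.430 and 0.427 FPKM in the hyperlipidemic group. No member above 0 met that level only through the hyperlipidemic group, so the filter tilts the count of members downward. With no filter on low values 26 of 43 members were below 0, with a median of -0.043 beside 0.082 for all loci. Without normal replicate 1 the count was 15 of 23 (median -0.21, all loci 0.16). With replicate 1 of both groups left out it was 14 of 22 (median -0.30, all loci 0.11). The median of all loci moved to 0.052 under median-of-ratios scaling and to 0.053 under quantile normalization, and no tested member changed sign under either. The groups did not overlap for 2 members (8.33%), Ccl5 and the receptor Ccr1l1, which is close to the 7.94% of all tested loci (3.75% lower and 4.19% higher in the hyperlipidemic group) and to the 6.05% of those above 1000 bp. At an unadjusted p under 0.05 there were 2 members higher (Ccl6 and Ccr1l1) and 2 lower (Ccl5 and Cxcl14), against 13.0% of all tested loci in either direction.

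**Figure D2:**
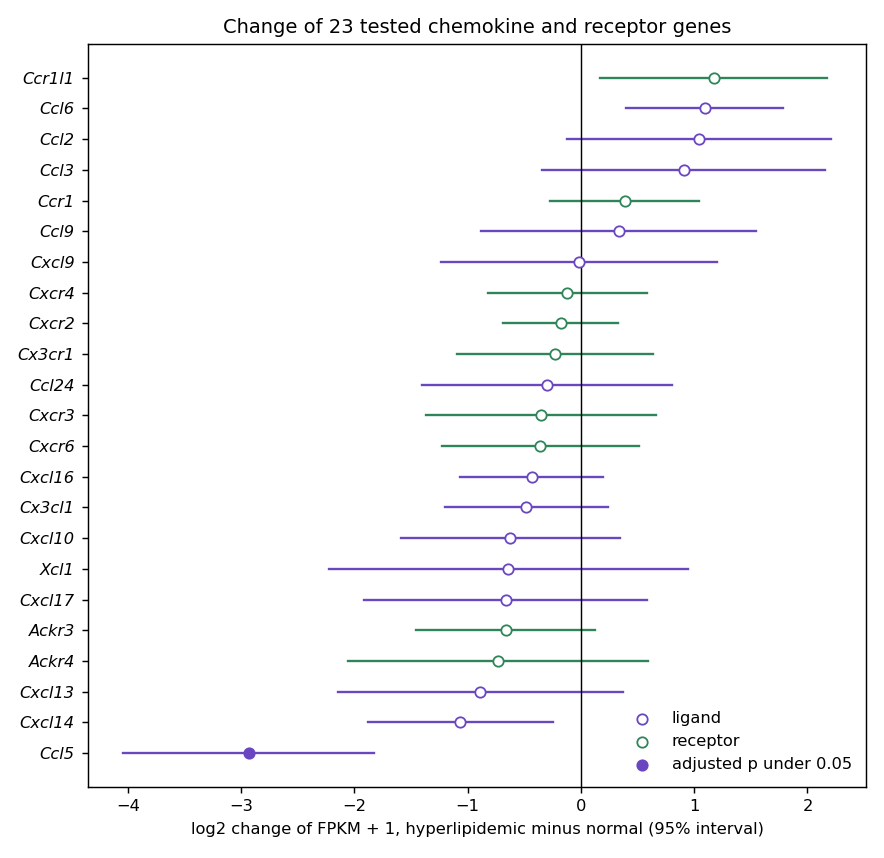
Log2 change of 23 of the 24 tested members, hyperlipidemic minus normal, with its 95% interval from limma, ordered by size, ligands in purple and receptors in green. Ccl5 alone is filled (adjusted p = 0.0159), and the intervals of Cxcl14, Ccl6 and Ccr1l1 also lie to one side of 0 although their adjusted p are 0.277, 0.185 and 0.316.

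Ccl5, which attracts T cells and monocytes through receptors that include Ccr1, lies on chromosome 10 from 70739800 to 70744315 on Rnor_6.0. It measured 24.6, 11.5, 7.22 and 19.7 FPKM in normal replicates 1 to 4 and 3.25, 1.60, 0 and 0.441 FPKM in hyperlipidemic replicates 1 to 4. Every normal library lay above every hyperlipidemic one, the nearest values being 7.22 and 3.25 FPKM. The log2 change was -2.94 (SE 0.50, 95% interval -4.04 to -1.83; limma adjusted p = 0.0159), or -3.11 relative to the median of all loci. In bulk tissue, fewer cells of a type and less RNA per cell cannot be told apart. The call was lost without normal replicate 4 (adjusted p = 0.0607) or hyperlipidemic replicate 4 (0.0622), with a pseudocount of 0.1 (log2 change -4.26, adjusted p = 0.0870) and with no filter on low values (0.0815). In the authors' deposited table Ccl5 is marked down with a p-value of 0.00912 and a q-value of 0.632, the lowest q-value of any member there.

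Markers of T and NK cells, which are known sources of Ccl5, were measured beside it. Of the 8 tested markers of these cells all had a log2 change below 0 and none passed, with a median of -0.55. Cd3g, a subunit of the T cell receptor complex, measured 9.04, 4.84, 5.22 and 7.93 FPKM in normal replicates 1 to 4 and 1.54, 1.58, 0 and 2.72 FPKM in hyperlipidemic replicates 1 to 4 (log2 change -1.76, adjusted p = 0.0856). The kinase Lck lay between 3.24 and 8.65 FPKM in the normal and between 1.13 and 2.33 in the hyperlipidemic group (-1.25, 0.147). Both of these markers, like Ccl5, were without overlap, whereas Cd4 at 9.01 FPKM or more in every normal library had a log2 change of -0.049. The summed level of the list, most of it from Nkg7, overlapped (76.4 to 162 FPKM normal, 69.2 to 91.8 hyperlipidemic) and Klrb1 was near 0 throughout. The part of T and NK cells in the Ccl5 result was not tested.

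Ccl6 and Ccl9 are CC ligands of rodents that act on Ccr1 in the mouse and lie next to Ccl5. On Rnor_6.0 the loci Ccl5, Ccl9, Ccl6, Ccl3 and Ccl4 span 146556 bp of chromosome 10, with 52808 bp between Ccl5 and Ccl6 and 8814 bp between Ccl9 and Ccl6. Ccl6 (70797124 to 70802782) was the most abundant of the member ligands. It measured 48.9, 17.4, 25.2 and 20.7 FPKM in normal replicates 1 to 4 and 74.1, 44.2, 56.1 and 54.4 FPKM in hyperlipidemic replicates 1 to 4. Normal replicate 1 alone reached into the hyperlipidemic range. The means were 28.0 ± 14.3 and 57.2 ± 12.4 FPKM (SD, n = 4 per group), 2.04-fold higher in the hyperlipidemic group, with a log2 change of 1.09 (SE 0.31, 95% interval 0.40 to 1.78; limma adjusted p = 0.185). Without normal replicate 1 the groups did not overlap and Ccl6 passed (log2 change 1.39, adjusted p = 0.00827), as it did with array quality weights (1.40, 0.0116) and with replicate 1 of both groups left out (1.26, 0.0308). Without any other single library the adjusted p lay between 0.183 and 0.477. In the authors' deposited table Ccl6 is marked up, with a p-value of 0.0490 and a q-value of 0.840.

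Ccl9, next to Ccl6, did not pass. It measured 5.70, 1.15, 3.10 and 0 FPKM in normal replicates 1 to 4 and 3.98, 3.13, 2.11 and 1.33 FPKM in hyperlipidemic replicates 1 to 4, with the normal range covering the whole hyperlipidemic one (log2 change 0.33, 95% interval -0.88 to 1.55; adjusted p = 0.808). Its sign turned without normal replicate 4 (-0.16). The sequences of Ccl6 and Ccl9 are related, and the sources used here do not say how reads shared between related loci were assigned.

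Ccl3 and Ccl2, inflammatory ligands that attract monocytes, were listed at 0 in the same 3 normal libraries. Ccl3 measured 3.32 FPKM in normal replicate 2, had a listed value of 0 in the other normal libraries, and measured 4.83, 0.990, 0.869 and 1.46 FPKM in hyperlipidemic replicates 1 to 4. Ccl2 measured 2.64 FPKM in normal replicate 2, was listed at 0 in the other normal libraries, and measured 1.29, 1.27, 5.07 and 1.07 FPKM in hyperlipidemic replicates 1 to 4. Both were above 0 in every hyperlipidemic library, and in both the lone normal value lay within the hyperlipidemic range. Neither passed (Ccl3 log2 change 0.91, 95% interval -0.35 to 2.16, adjusted p = 0.499; Ccl2 1.04, -0.13 to 2.21, 0.423). Without normal replicate 2 neither gene overlapped between the groups, and neither passed then (lowest adjusted p over all single libraries left out 0.203 for Ccl3 and 0.177 for Ccl2). Another locus of the deposited table, from 70870239 to 70871017 on chromosome 10, lies inside that of Ccl3 (70869513 to 70871066), so the source of the Ccl3 reads is uncertain. The summed markers of monocytes and macrophages (9 of 9 found) lay between 4183 and 6076 FPKM in the normal group. In the hyperlipidemic group they lay between 5199 and 6723. Nearly all of this sum came from Lyz2. Singly, 5 of the 9 had a log2 change above 0 and 4 below, all overlapped, and none passed.

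Ccl24, which attracts eosinophils, measured 2.43, 1.76, 0.369 and 0 FPKM in normal replicates 1 to 4 and 2.06, 0.411, 0 and 0.317 FPKM in hyperlipidemic replicates 1 to 4. The groups covered nearly the same range (log2 change -0.30, adjusted p = 0.812; -0.013 without normal replicate 1 and -0.63 without hyperlipidemic replicate 1). Of 5 markers of eosinophils and mast cells, Prg2, Epx and Kit were higher and Cpa3 lower without overlap, while Tpsab1 overlapped with a log2 change below 0 (-1.32). Cpa3, a protease of mast cells, was at 29.0 ± 12.8 and 14.4 ± 3.42 FPKM (SD, n = 4 per group; log2 change -0.91, limma adjusted p = 0.262). The summed FPKM of the 5, most of it from Prg2, lay between 803 and 1087 in the normal and between 1456 and 1629 in the hyperlipidemic group, and the eosinophil peroxidase Epx rose from 131 ± 25.0 to 250.2 ± 11.7 FPKM (SD, n = 4 per group; log2 change 0.95, limma adjusted p = 0.0485). The part of these cells in the level of any chemokine gene was not tested.

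**Figure D3:**
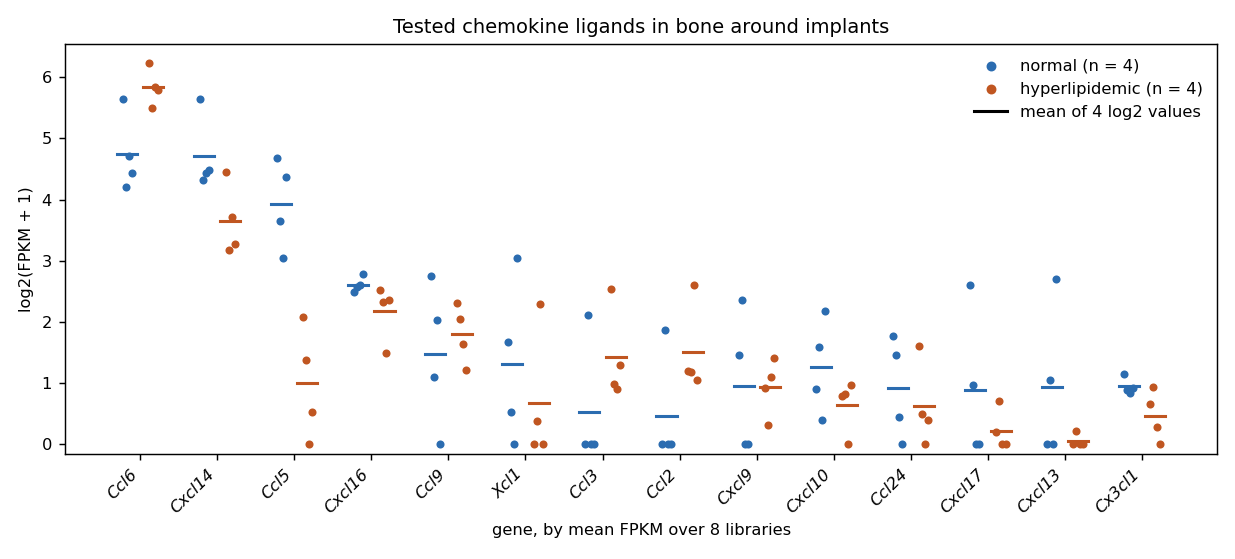
Level of the 14 tested ligands as log2(FPKM + 1), 1 point per library, normal in blue and hyperlipidemic in orange, with a bar at the mean of the 4 log2 values. The points of Ccl5 separate by group, normal replicate 1 is the highest blue point of Ccl6 and Cxcl14, and from Cxcl16 rightwards the groups overlap.

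Among the CXC ligands of the naming rule all 6 tested members had a log2 change below 0 and none passed (median -0.64). This shared sign depends in part on that rule and on the filter. The platelet chemokine genes Pf4 and Ppbp, outside the rule, had log2 changes of 2.10 and 1.96 (limma adjusted p = 0.477 and 0.170). Cxcl17 was below the level for testing without normal replicate 1, and Cxcl13 without normal replicate 4. Of the untested CXC ligands, Cxcl6 and Cxcl1 had the higher mean in the hyperlipidemic group and Cxcl11 in the normal group. Cxcl14, a ligand made by epithelia and stroma in the absence of inflammation, lies on chromosome 17 (9109731 to 9117750). It measured 48.8, 18.9, 20.7 and 21.3 FPKM in normal replicates 1 to 4 and 20.8, 8.06, 12.2 and 8.64 FPKM in hyperlipidemic replicates 1 to 4. Hyperlipidemic replicate 1 alone reached the normal range, and normal replicate 1 stood far above the other libraries. The means were 27.4 ± 14.3 and 12.4 ± 5.88 FPKM (SD, n = 4 per group; log2 change -1.06, SE 0.37, 95% interval -1.88 to -0.25; limma adjusted p = 0.277), and the log2 change stayed between -1.33 and -0.76 with any single library left out. Median-of-ratios scaling, and leaving out hyperlipidemic replicate 1 alone or with normal replicate 1, left its groups without overlap. Summed markers of bone-forming cells, given above, were lower in the hyperlipidemic libraries without overlap. Singly, 3 of the 7 (Col1a1, Bglap and Sparc) did not overlap. Ibsp (log2 change 0.068), Alpl (-0.10), Sp7 (-0.50) and Runx2 (-0.29) did. The part of these cells in the Cxcl14 values was not tested. The authors' deposited table marks Cxcl14 down with a q-value of 0.840.

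Cxcl16, a membrane-bound ligand of Cxcr6 that also takes up oxidised lipoprotein, was among the steadiest members. It measured 4.63, 4.94, 5.06 and 5.90 FPKM in normal replicates 1 to 4 and 4.72, 3.99, 1.83 and 4.16 FPKM in hyperlipidemic replicates 1 to 4. The normal values were close together and hyperlipidemic replicate 1 lay among them (5.13 ± 0.544 and 3.68 ± 1.27 FPKM, SD, n = 4 per group; log2 change -0.44, 95% interval -1.07 to 0.20, adjusted p = 0.520). One end of its locus overlaps that of Zmynd15, so the source of part of its reads is uncertain.

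The ligands of Cxcr3 that interferon induces, Cxcl9, Cxcl10 and Cxcl11, lie within 39699 bp of chromosome 14 and were low. Cxcl9 measured 1.76, 4.15, 0 and 0 FPKM in normal replicates 1 to 4 and 0.903, 0.246, 1.15 and 1.66 FPKM in hyperlipidemic replicates 1 to 4. Its change was near 0 and without a steady sign (log2 change -0.017, 95% interval -1.23 to 1.20), turning to 0.82 with a pseudocount of 0.1. Cxcl10 measured 0.865, 2.01, 0.323 and 3.56 FPKM in normal replicates 1 to 4 and 0.725, 0.767, 0 and 0.969 FPKM in hyperlipidemic replicates 1 to 4 (-0.62, -1.59 to 0.34, adjusted p = 0.543). Normal replicates 2 and 4 were above every hyperlipidemic library and normal replicate 3 below 3 of them. Cxcl11 was above 0 only in normal replicates 2 and 4, at 0.191 and 2.22 FPKM, and was not tested. Cxcl10 and Cxcl11 overlap the locus of Art3 in the deposited table, so the source of their reads is uncertain.

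Xcl1, which acts on dendritic cells through Xcr1, measured 2.18, 0.449, 0 and 7.23 FPKM in normal replicates 1 to 4 and 0, 0.311, 3.89 and 0 FPKM in hyperlipidemic replicates 1 to 4. The libraries of both groups were scattered (log2 change -0.64, 95% interval -2.23 to 0.94, adjusted p = 0.705), and the change was -0.065 without normal replicate 4 and -1.18 without hyperlipidemic replicate 3. Cxcl17, known from mucosal surfaces, measured 5.10, 0.951, 0 and 0 FPKM in normal replicates 1 to 4 and 0.151, 0.634, 0 and 0 FPKM in hyperlipidemic replicates 1 to 4 (-0.67, -1.91 to 0.58, 0.608). A single normal library carried most of its signal. Cxcl13, which guides B cells, measured 0, 1.07, 0 and 5.54 FPKM in normal replicates 1 to 4 and 0, 0.160, 0 and 0 FPKM in hyperlipidemic replicates 1 to 4, so that 5 of the 8 libraries were listed at 0. Cx3cl1, the membrane-tethered ligand fractalkine, measured 1.22, 0.863, 0.797 and 0.889 FPKM in normal replicates 1 to 4 and 0.582, 0.923, 0.214 and 0 FPKM in hyperlipidemic replicates 1 to 4, where hyperlipidemic replicate 2 alone reached the normal range. Neither Cxcl13 (log2 change -0.89, adjusted p = 0.511) nor Cx3cl1 (-0.48, 0.531) passed. Of the 7 B cell markers tested 6 were below 0 and none passed (median -0.76), with summed levels of 75.1 to 108 FPKM in the normal and 34.7 to 79.1 in the hyperlipidemic group. Their part in the Cxcl13 values was not tested.

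Receptors as a group had no member past the test, beside 1.39% of all tested loci. Of the 10 tested receptors 8 were below 0, with a median log2 change of -0.20, beside 35.0% and 0.18 for all tested loci. This count depends in part on the filter, which Cxcr6 met only through the normal group. Of the untested receptors, Ccr6, Ccr7, Ccr9, Ccr10, Ccr4 and Ackr2 had the higher mean in the hyperlipidemic group, and Cxcr5, Cxcr1, Xcr1 and Ccr8 in the normal group. Cxcr4, which holds blood-forming cells in the marrow, was the most abundant member of all. It measured 106, 51.5, 49.2 and 34.0 FPKM in normal replicates 1 to 4 and 57.0, 49.7, 40.0 and 57.4 FPKM in hyperlipidemic replicates 1 to 4, with the hyperlipidemic range inside the normal one. The means were 60.1 ± 31.4 and 51.0 ± 8.13 FPKM (SD, n = 4 per group; log2 change -0.12, 95% interval -0.82 to 0.58, adjusted p = 0.886), and the sign turned without normal replicate 1 (0.19). Cxcr2, the receptor by which neutrophils leave the marrow, measured 47.9, 37.6, 27.2 and 34.5 FPKM in normal replicates 1 to 4 and 37.7, 24.6, 34.7 and 31.7 FPKM in hyperlipidemic replicates 1 to 4 (36.8 ± 8.58 and 32.2 ± 5.59, SD, n = 4 per group; -0.18, -0.68 to 0.33, 0.747). Its interval was the narrowest of the 24 tested members, and a change of more than 0.68 lower or 0.33 higher lies outside it. The summed neutrophil markers also overlapped (9405 to 11732 FPKM normal, 9387 to 12230 hyperlipidemic).

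Cxcl1 and Cxcl6, ligands of Cxcr2, were far lower than their receptor. Cxcl1 measured 0.866 FPKM in hyperlipidemic replicate 1 and 0.140 FPKM in hyperlipidemic replicate 2, and was listed at 0 in every other library. Cxcl6 was above 0 in normal replicate 2 at 0.589 FPKM and in hyperlipidemic replicates 1, 2 and 4, at 0.645, 0.838 and 0.563 FPKM. Neither reached the level for testing. Cxcr1, the related neutrophil receptor, was above 0 only in normal replicate 1, at 0.212 FPKM.

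Ccr1, a receptor shared by Ccl3 and Ccl5, was measured in every library, and Ccr1l1, a locus related to it, also lies on chromosome 8. Ccr1 measured 7.37, 4.26, 6.11 and 6.16 FPKM in normal replicates 1 to 4 and 14.0, 7.34, 6.54 and 5.92 FPKM in hyperlipidemic replicates 1 to 4, hyperlipidemic replicate 1 standing above the rest (5.98 ± 1.28 and 8.45 ± 3.75, SD, n = 4 per group; log2 change 0.39, 95% interval -0.28 to 1.05, adjusted p = 0.580), and without that library the log2 change was 0.14. The groups overlapped in the range from 5.92 to 7.37 FPKM. Ccr1l1 (133127220 to 133128290) measured 0, 2.17, 2.40 and 1.58 FPKM in normal replicates 1 to 4 and 6.56, 2.59, 2.75 and 6.03 FPKM in hyperlipidemic replicates 1 to 4. Every hyperlipidemic library lay above every normal one, by a narrow gap between 2.40 and 2.59 FPKM, and the change did not pass (log2 change 1.17, SE 0.45, 95% interval 0.17 to 2.17; limma adjusted p = 0.316). It was 0.77 without normal replicate 1, in which it was listed at 0. Of the markers of eosinophils and mast cells given above, 3 were also higher without overlap and 1 (Cpa3) lower without overlap, and their part in the Ccr1l1 values was not tested.

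**Figure D4:**
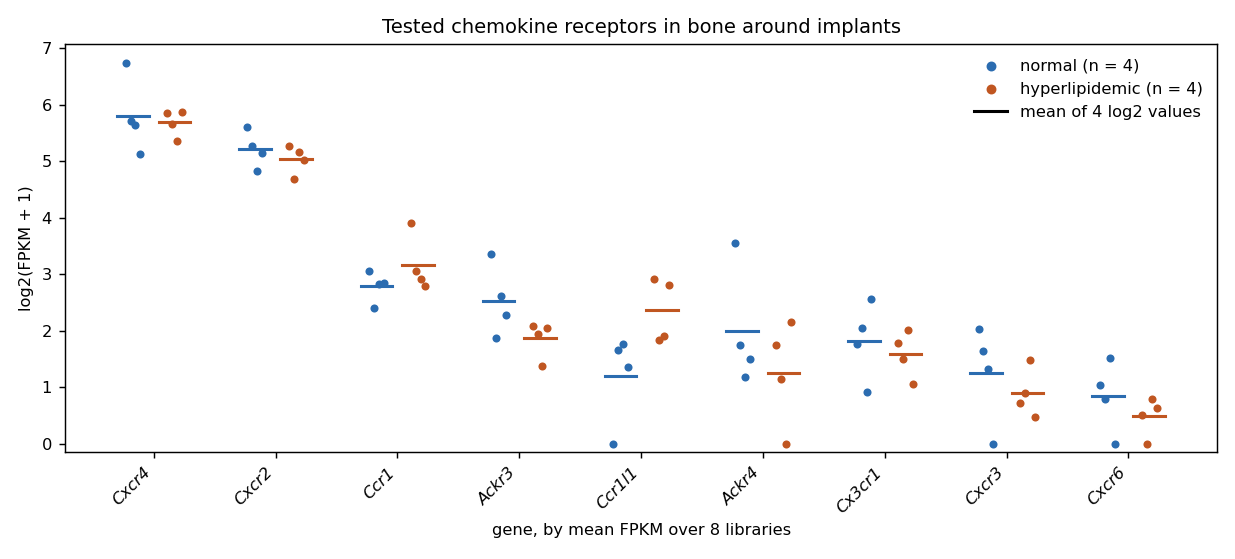
Level of 9 of the 10 tested receptors as log2(FPKM + 1), 1 point per library, normal in blue and hyperlipidemic in orange, with a bar at the mean of the 4 log2 values. Cxcr4 and Cxcr2 lie well above the other receptors in both groups, and only for Ccr1l1 do the points of the groups not overlap.

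Of the atypical receptors, Ackr3 and Ackr4 were measured in bone and Ackr2 was above 0 in 1 library only, hyperlipidemic replicate 1, at 0.0891 FPKM. Ackr3, which removes the ligand of Cxcr4, measured 9.26, 2.64, 5.16 and 3.83 FPKM in normal replicates 1 to 4 and 3.23, 2.86, 1.60 and 3.14 FPKM in hyperlipidemic replicates 1 to 4. Only normal replicate 2 lay within the hyperlipidemic range (5.22 ± 2.88 and 2.71 ± 0.757, SD, n = 4 per group; log2 change -0.67, 95% interval -1.45 to 0.12, adjusted p = 0.440), and without normal replicate 1 the log2 change was -0.39. Ackr4, which removes Ccl21 and related ligands, measured 10.8, 2.34, 1.26 and 1.82 FPKM in normal replicates 1 to 4 and 2.34, 1.20, 0 and 3.47 FPKM in hyperlipidemic replicates 1 to 4 (-0.73, -2.06 to 0.59, 0.600). Normal replicate 1 was far above the others, and without it the log2 change was -0.21. The Ackr4 locus overlaps that of Acad11, so the source of its reads is uncertain.

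Cx3cr1, the receptor of fractalkine on monocytes, measured 2.39, 3.13, 0.897 and 4.92 FPKM in normal replicates 1 to 4 and 2.46, 1.84, 3.02 and 1.09 FPKM in hyperlipidemic replicates 1 to 4, the hyperlipidemic range lying inside the normal one (2.83 ± 1.67 and 2.10 ± 0.828, SD, n = 4 per group; log2 change -0.23, adjusted p = 0.814). Cxcr3, carried by activated T and NK cells, measured 3.08, 2.11, 1.51 and 0 FPKM in normal replicates 1 to 4 and 0.649, 0.867, 1.79 and 0.393 FPKM in hyperlipidemic replicates 1 to 4 (log2 change -0.35, adjusted p = 0.749; -0.093 without normal replicate 1 and -0.77 without normal replicate 4). Cxcr6, the receptor of Cxcl16, measured 1.07, 0.741, 1.87 and 0 FPKM in normal replicates 1 to 4 and 0.416, 0, 0.741 and 0.549 FPKM in hyperlipidemic replicates 1 to 4 (-0.36, 0.699). Both were listed at 0 in normal replicate 4 and overlapped between the groups. Cxcr6 lies inside the locus of Fyco1 in the deposited table, so its source is uncertain.

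The 19 members that were not tested had means of up to 0.334 FPKM. The highest of them, Ccr6, the receptor of Ccl20, was at 0.585 FPKM in normal replicate 2, listed at 0 in the other normal libraries, and reached 0.594, 0.186, 0.784 and 0.525 FPKM in hyperlipidemic replicates 1 to 4. Ccr7, which directs cells to lymph nodes, measured 0.592 FPKM in normal replicate 2, 0.715 FPKM in hyperlipidemic replicate 1 and 0.475 FPKM in hyperlipidemic replicate 2, and was listed at 0 elsewhere. For Ccr6 every hyperlipidemic library was above 0 against a single normal one. The others were 9 ligands (Cxcl6, Cxcl11, Ccl17, Cxcl1, Ccl12, Ccl22, Ccl4, Ccl7 and Ccl21) and the receptors Ccr9, Cxcr5, Ccr10, Ccr4, Cxcr1, Xcr1, Ackr2 and Ccr8. Of all 43 members 5 were listed at 0 in every normal library and 3 in every hyperlipidemic one. Normal replicate 2 and hyperlipidemic replicate 2 had the fewest members at 0 (7 and 9), and normal replicate 4 the most (26). Over all tested loci 1.67%, 2.37% and 14.5% were at 0 in these libraries, and 14.6% in normal replicate 1.

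Genes in 4 lists of signalling downstream of the receptors gave no call. None of 9 tested genes of G proteins and phospholipase C passed (6 above 0, median log2 change 0.21), nor did any of 8 genes of receptor desensitisation (7 above 0, 0.35), of 17 kinases and adaptors (11 above 0, 0.15) or of 11 NF-kappaB genes (6 above 0, 0.027). Rgs18, a brake on G protein signalling that is abundant in platelets, was at 57.9 ± 21.8 and 131 ± 41.3 FPKM (SD, n = 4 per group; log2 change 1.18, adjusted p = 0.207). Jak2, a kinase of cytokine receptors, was at 12.6 ± 2.89 and 20.7 ± 3.41 FPKM (0.68, 0.264). Both overlapped between the groups. Among 11 tested chemokine-related genes outside the naming rule none passed (7 above 0, median 0.035). Of these, Ppbp, a chemokine of platelets whose processed form is a ligand of CXCR2 in humans, measured 10.7, 49.5, 52.7 and 14.4 FPKM in normal replicates 1 to 4 and 107, 48.2, 159 and 130 FPKM in hyperlipidemic replicates 1 to 4 (1.96, 0.170). Ppbp is itself 1 of the 6 markers of megakaryocytes and platelets. The others (Pf4, Itga2b, Gp9, Gp6 and Gp1bb) also had log2 changes above 0 with none called, and the part of these cells in the Ppbp and Rgs18 values was not tested.

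The other deposited tables held few transcripts tied to these genes. None of the 774 circular RNAs had a member as host (0 of 774). Of 14625 long non-coding RNAs, 8 lay at or within 10000 bp of a member, and 4 overlapped one. A lncRNA of 254 bp inside the Ccl6 locus (chromosome 10, 70801623 to 70801876) measured 43.7, 0.577, 0.632 and 0 FPKM in normal replicates 1 to 4 and 6.34, 1.05, 3.31 and 3.54 FPKM in hyperlipidemic replicates 1 to 4. Another of 1280 bp at one end of the Cxcr2 locus (chromosome 9, 81427754 to 81429033) measured 28.0, 3.53, 6.84 and 5.99 FPKM in normal replicates 1 to 4 and 1.93, 5.01, 1.88 and 1.33 FPKM in hyperlipidemic replicates 1 to 4. In both, normal replicate 1 was several times above every other library, and it also held the highest normal value of Ccl6 and the highest value of Cxcr2. The transcript at Cxcr2 carries the assembled gene identifier of Cxcr2 itself, so its values are not a separate observation from that gene. The transcript inside Ccl6 carries a different identifier from Ccl6. The table gives no strand for these transcripts, and whether they share reads with the genes was not tested.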

How the data were processed

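The authors deposited FPKM values for genes, long non-coding RNAs and circular RNAs in each of 8 libraries, per the file headers. The submitters' processing notes name StringTie 1.3.3b, HISAT2 2.1.0, bcl2fastq 1.8.4 and the rat genome build Rnor_6.0. The sources used here do not give the role of each tool, the annotation, the filters or the authors' test. The deposited tables also hold the authors' fold change (a ratio of hyperlipidemic over normal), its log2 value, a p-value and a q-value. Per the labels, libraries were made by the dUTP method from 3 ug of RNA and read as pairs of 150 bp. Of the per-sample columns 0 were left unmatched.

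The analysis used R 4.3.3 with limma 3.58.1. Loci with a mean of at least 0.5 FPKM were taken to log2 after adding 1, and the groups were compared by limma's moderated test, with a mean-dependent prior variance and without further scaling. The method was tested on simulated data with normally distributed noise, no listed zeros and changes planted only in more abundant loci. Detection of changes in low members, or in members with listed zeros, was therefore not tested. The members, the gene lists and the naming rule were chosen with earlier results of these data known. Values in full were given for called members, tested members without overlap, and the 12 ligands and 12 receptors of highest mean; signalling lists are given by counts and up to 3 genes of smallest p. Cxcl13, Cx3cl1 and untested members given with values outside that rule were picked after their values were seen. Alternatives were another pseudocount, other filters, quantile normalization, median-of-ratios scaling, a block for the replicate number, a constant prior variance, array quality weights, each library left out in turn, and replicate 1 of both groups left out. Restriction to loci above 0 in all 8 libraries was added after the data were seen. Of the tested members 1, a receptor that did not pass the test, is counted but otherwise not reported here, and 1 signalling list was left out. Another 3 sheets of the gene workbook were not used here, since they give the same values again or only the group letters.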

Additional observations from a re-analysis of the deposited data

Results flagged for a closer look

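In groups of 4 libraries, a value was picked out when its gap to the nearest other library took up more of the group's range than Dixon's 95% critical value. Of 48 groups of tested members 8 met this (16.7%), beside 8.80% of the groups of all tested loci. Chance gives about 5% for values that follow a normal distribution, which low FPKM values with listed zeros do not. In 3 of the 8 the other 3 libraries were all listed at 0, which meets the criterion by construction. Normal replicate 1 stood out for Cxcl14 (48.8 FPKM, the others 18.9 to 21.3) and for Ackr4 (10.8, the others 1.26 to 2.34). Normal replicate 2 stood out for Ccl2 (2.64) and for Ccl3 (3.32), with the other normal libraries listed at 0. Hyperlipidemic replicate 3 stood out for Ccl2 (5.07, the others 1.07 to 1.29) and for Xcl1 (3.89, the others 0 to 0.311). Hyperlipidemic replicate 1 stood out for Ccl3 (4.83, the others 0.869 to 1.46). Hyperlipidemic replicate 2 stood out for Cxcl13 at 0.160, with the other hyperlipidemic libraries listed at 0. The causes were not tested.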

How the results depend on the processing

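The number of loci called over the whole table was 191 and ranged from 113 to 230 with single libraries left out. It was 107 with no filter on low values and 116 among loci above 0 in all 8 libraries. The number of members called, 1 in the main test, ranged from 0 to 2 with single libraries left out. It was 0 with a pseudocount of 0.1, with no filter, and among loci above 0 in all libraries, a set that leaves out Ccl5 by construction, and 2 (Ccl5 and Ccl6) with array quality weights and with replicate 1 of both groups left out. Members without overlap numbered 2 (8.33%, against 7.94% of all tested loci). They numbered from 2 to 5 (8.33% to 20.8%) with single libraries left out, against 9.34% to 16.5% of all loci, 4 (16.7%, against 8.40%) under median-of-ratios scaling, which added Cxcl14 and Cxcl16, and 5 (20.8%, against 13.7%) with replicate 1 of both groups left out. Cxcl9 changed sign with a pseudocount of 0.1 (0.82) and with replicate 1 of both groups left out (0.16), and Cxcr4 with array quality weights (0.050) and with replicate 1 of both groups left out (0.13). With single libraries left out, log2 changes ranged from -0.16 to 0.76 for Ccl9, -0.53 to 0.016 for Cx3cr1, -0.34 to 0.45 for Cxcl9 and -0.35 to 0.19 for Cxcr4, all of which include a change of sign. The causes were not tested. Libraries with the same replicate number did not deviate together throughout (r across loci 0.0107 to 0.129), so the numbers were not taken as pairs. With the replicate number as a block 151 loci and 1 member (Ccl5, adjusted p = 0.00708) were called. Depth is unknown, so low members cannot be separated from absent ones.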
